A study of Mus musculus with 12 samples.

Results

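The collagen and laminin chain genes of the mouse were followed in Bl/6J embryonic stem cells before and after retinoic acid (RA). They were taken by symbol, as the protein-coding genes named Col with a collagen and a chain number or Lama, Lamb or Lamc with a chain number, and 55 of the 55416 genes counted matched. Of these, 11 encode fibrillar collagens and 17 encode the basement membrane chains, namely 6 collagen IV chains and 11 laminin chains. The other members are 2 multiplexins, 9 beaded filament or network collagens, 9 FACIT collagens, 4 transmembrane collagens and 3 others. The 12 ribosomal RNA-depleted libraries fall into 4 groups of 3. C48S RA and WT RA cells were collected at day 2 of RA at 1.5 mg/L in medium without leukaemia inhibitory factor. C48S undifferentiated and WT undifferentiated cells were grown with a MEK inhibitor at 1 µM, a GSK3 inhibitor at 3 µM and ascorbic acid. WT cells carry the wild-type Oct4 gene. C48S cells come from 1 clone, number 46, whose Oct4 protein has serine in place of a cysteine, so effects of the mutation and of other features of the clone cannot be told apart. The labels mention no feeder layer and do not give separate cultures, and the p-values therefore rest on a spread between libraries that may be technical. Whether inhibitors and ascorbic acid stayed in the RA medium is not given there, so RA, the loss of leukaemia inhibitory factor and other changes of medium cannot be told apart. The treatment field gives the RA libraries days other than the day 2 of the titles and protocol, and the titles were followed.

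Collagens are triple helices of 3 chains that are secreted into the extracellular matrix. Fibrillar collagens such as types I, III and V form the cable-like fibrils of connective tissue and are made mainly by mesenchymal cells, including the fibroblasts used as feeder layers. Collagen IV and laminins instead build basement membranes, the thin sheets that epithelia rest on. A laminin is a cross of one α, one β and one γ chain and is named by them, and laminin-111 and laminin-511 are the forms known from the early mouse embryo and from embryonic stem cells. Laminin and collagen IV chains are also known as genes that RA raises in mouse F9 teratocarcinoma cells, where they accompany the formation of extraembryonic endoderm.

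Levels are read-pair counts scaled to a common library size (CPM, with TMM normalisation), from totals of 8678088 to 13597098 counts per library. Levels of different genes are compared only per kilobase (kb) of exonic length. Changes are edgeR log2 fold changes ± SE, with 3 libraries a group. The SE is the size of the change divided by the square root of edgeR's quasi-likelihood F statistic. It thus rests on the spread estimated in 1 fit over all 12 libraries. A gene counts as risen, fallen or called where the quasi-likelihood test, adjusted by Benjamini-Hochberg over 17940 genes, gave a p under 0.05. C48S undifferentiated replicate 3 stood apart from its group, whose counts gave a chi-square of 9.33 and 9.03 per degree of freedom against replicates 1 and 2, where other pairs within a group gave at most 2.2. The stem cell factor Nanog was at 94.4, 95.02 and 93.3 CPM in C48S RA and 16.4, 15.9 and 17.6 CPM in WT RA libraries, against 857, 861 and 856 CPM in C48S undifferentiated and 1079, 1085 and 1044 CPM in WT undifferentiated libraries. Chromosome medians of C48S against WT were taken over protein-coding genes averaging at least 1 CPM. Chromosomes 6 and 8 had a median log2 change of 0.63 and 0.58 after RA and 0.58 and 0.52 before it. That of chromosome 11 was -0.48 after RA and -0.53 before it. Over all genes tested, a set without these limits, the median was 0.02 after RA and 0.001 before it. Scaling by raw library totals in place of TMM would raise the RA changes of all genes alike, by 0.24 in C48S and 0.34 in WT, and would turn the sign of 0 of the called members.

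The collagen IV genes lie in head-to-head pairs, which is shown here because their levels are compared below. On GRCm39 Col4a1 (minus strand) and Col4a2 (plus strand) overlap by 22 bases at their starts on chromosome 8, Col4a4 and Col4a3 start 71 bases apart on chromosome 1, and Col4a6 and Col4a5 start 1308 bases apart on chromosome X. RefSeq promoters of build GRCm38.p6, which hold 250 bases before and 50 bases after a start, were found for 40 of the 55 members. The Col4a1 and Col4a2 windows share 78 bases, at chr8:11312777-11312854, which are in capitals here and read in opposite directions. The window of Col4a1 is chr8:11312777-11313076 on the minus strand, and that of Col4a2 is chr8:11312555-11312854 on the plus strand.
Col4a1: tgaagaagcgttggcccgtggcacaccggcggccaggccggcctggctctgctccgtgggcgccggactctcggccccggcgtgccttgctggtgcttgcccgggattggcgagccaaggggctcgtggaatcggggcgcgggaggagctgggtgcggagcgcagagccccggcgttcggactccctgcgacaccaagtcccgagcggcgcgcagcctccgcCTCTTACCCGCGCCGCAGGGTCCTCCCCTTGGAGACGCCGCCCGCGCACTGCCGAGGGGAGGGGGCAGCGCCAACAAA
Col4a2: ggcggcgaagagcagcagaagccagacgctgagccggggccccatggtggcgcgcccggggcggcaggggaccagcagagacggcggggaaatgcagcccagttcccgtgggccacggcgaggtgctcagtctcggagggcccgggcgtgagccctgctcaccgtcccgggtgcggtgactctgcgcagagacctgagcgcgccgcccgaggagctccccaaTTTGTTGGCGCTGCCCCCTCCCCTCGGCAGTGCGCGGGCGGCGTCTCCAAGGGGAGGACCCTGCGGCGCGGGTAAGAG

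A further pair of windows shows what is common and what is not among these promoters. The hexamer GGGCGG, the core of the GC box that Sp1 binds, was present on either strand in 26 of 44 member windows (59.1%) and in 35.7% of all 32851 promoters in the table. By class it was in 6 of 8 fibrillar windows (75%) and 7 of 11 basement membrane windows (63.6%). Lamb1, whose window at chr12:31265043-31265342 (plus strand) holds it on the other strand, where it reads CCGCCC, is printed with those copies in capitals. The CCAAT box was in 31.8% of member windows and 37.4% of all promoters, and the Col1a2 window at chr6:4505368-4505667 (plus strand) is printed with its copies, on either strand, in capitals. TATAAA was in 11.4% of member windows and 13.6% of all. AGGTCA, the hexamer that retinoid receptors bind in pairs, was in 18.2% of member windows and 16.3% of all, and its direct repeat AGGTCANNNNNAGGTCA was in 0 of the 44 and in 0.00913% of all. The shares were not adjusted for GC content, whose median was 52.7% over all promoters. Member windows ranged from 37.7% (Col3a1) to 75.0% (Col5a1). They include overlapping windows of the same gene for Col6a2 and Lamb3. Such matches are a description of these windows, not of binding.
Lamb1: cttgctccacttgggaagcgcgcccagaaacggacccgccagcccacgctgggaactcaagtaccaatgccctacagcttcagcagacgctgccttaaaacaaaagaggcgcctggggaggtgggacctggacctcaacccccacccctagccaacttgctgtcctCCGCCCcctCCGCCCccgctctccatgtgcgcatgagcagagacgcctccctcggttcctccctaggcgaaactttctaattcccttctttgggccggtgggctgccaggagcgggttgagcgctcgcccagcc
Col1a2: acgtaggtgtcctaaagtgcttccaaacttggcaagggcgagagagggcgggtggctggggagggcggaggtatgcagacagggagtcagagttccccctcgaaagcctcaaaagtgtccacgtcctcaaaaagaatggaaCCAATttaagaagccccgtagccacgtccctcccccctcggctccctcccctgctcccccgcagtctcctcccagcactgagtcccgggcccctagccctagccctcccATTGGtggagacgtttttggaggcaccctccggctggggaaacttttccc

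Most collagen and laminin genes changed with RA, and more rose than fell. In C48S, 34 of the 49 members tested rose and 11 fell, where 73.6% of all genes tested were called (39.0% higher, 34.6% lower). In WT, 36 rose and 11 fell, where 78.3% of all genes were called (40.9% higher, 37.4% lower). The median change of the members was 1.38 in C48S and 1.08 in WT, and that of all genes tested was 0.049 in C48S and 0.055 in WT. In both lines 31 members rose and 8 fell, a joint count for which no matching share of all genes is given here. Between the lines, 17 members were higher and 19 lower in C48S RA than in WT RA (54.5% of all genes called, 28.8% higher and 25.7% lower), and 20 were higher and 14 lower in C48S undifferentiated than in WT undifferentiated cells (55.6% called, 27.5% higher and 28.1% lower). The other 6 genes, Col4a3, Col6a6, Col9a1, Col14a1, Col19a1 and Col28a1, had too few counts to be tested and were below 1 CPM in each of the 12 libraries. Of these, Col6a6 had 22 counts over the WT RA libraries and 1 over the WT undifferentiated ones, a ratio of 21.4 (95% interval from 3.46 to 882), and Col19a1 had 10 and 1, a ratio of 9.72 (1.38 to 422), intervals that cover counting error only.

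**Figure D1:**
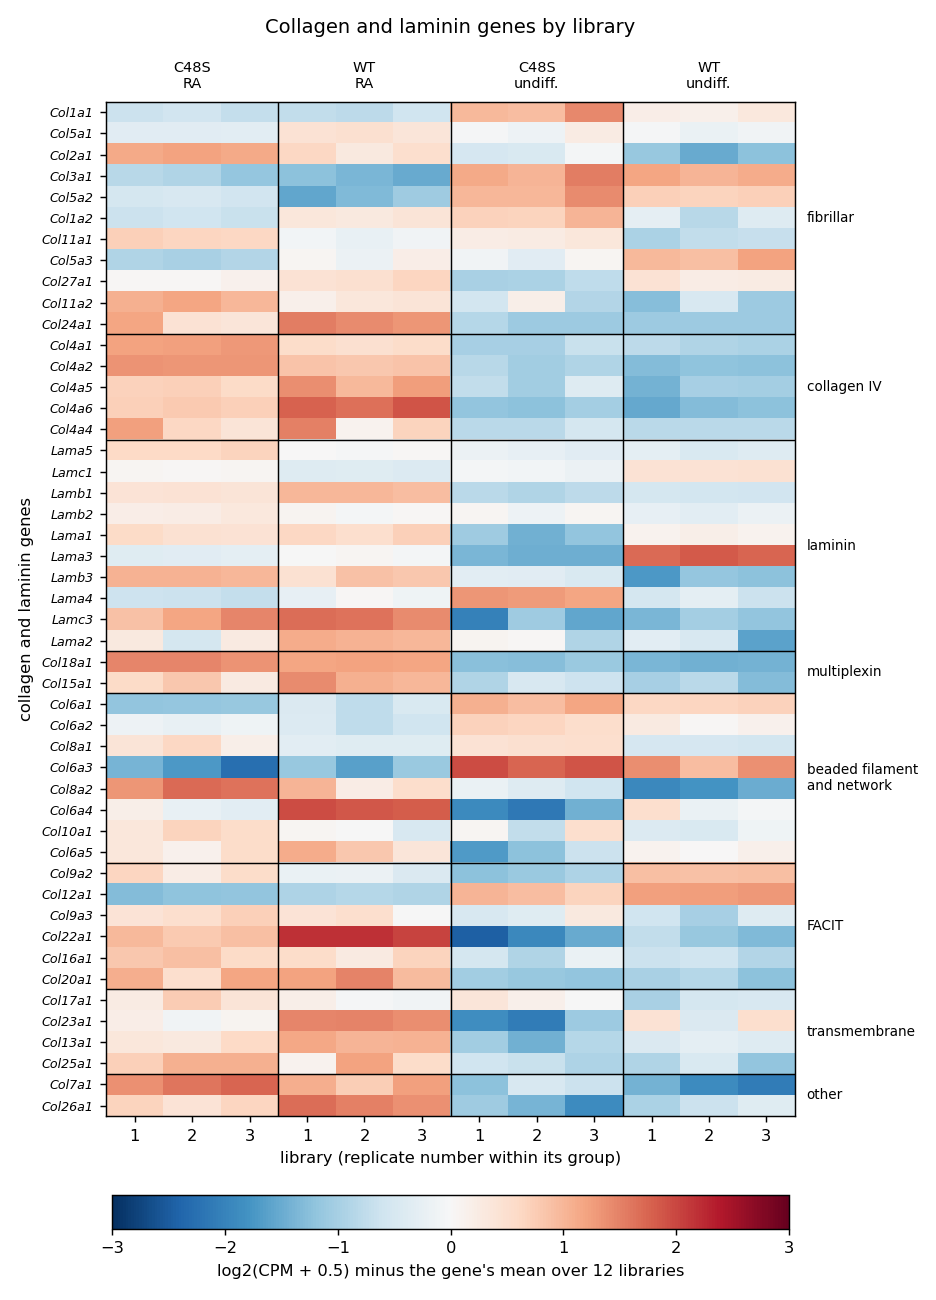
Levels of 48 of the 49 tested members (rows, by class) in the 12 libraries (columns, C48S RA, WT RA, C48S undifferentiated and WT undifferentiated, replicates 1 to 3), as log2(CPM + 0.5) minus the mean of the gene over all libraries, red for above and blue for below. Collagen IV and most laminin rows are red after RA, whereas Col1a1, Col3a1, Col5a2, Col6a1, Col6a3 and Col12a1 are red in the undifferentiated libraries of both lines.

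Summed per kb, the fibrillar and the basement membrane chains did not move together. The summed fibrillar level was 42.6, 43.6 and 41.2 CPM per kb in the C48S RA libraries and 41.1, 39.02 and 41.7 in the WT RA libraries, against 72.5, 70.4 and 97.3 in C48S undifferentiated and 54.7, 50.5 and 55.4 in WT undifferentiated libraries. It was thus lower after RA in both lines with no overlap, and highest in C48S undifferentiated cells. On raw library totals the WT groups overlapped, at 45.7, 43.4 and 46.7 CPM per kb after RA and 48.05, 44.2 and 49.2 before it, so the lower WT sum rests on the scaling. The summed collagen IV level was 42.97, 43.1 and 44.04 CPM per kb in C48S RA and 31.3, 29.1 and 31.01 in WT RA libraries, against 9.47, 8.75 and 10.8 in C48S undifferentiated and 8.81, 8.71 and 8.50 in WT undifferentiated libraries. Laminin chains were the most abundant class, at 282, 279.9 and 288 CPM per kb in C48S RA, 219, 216 and 217 in WT RA, 195, 186 and 179 in C48S undifferentiated and 223, 217 and 222 in WT undifferentiated libraries. The laminin sum was higher after RA in C48S without overlap, while in WT the groups overlapped, except on raw totals (244, 240.3 and 243 after RA, 196, 189.8 and 197 before it).

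**Figure D2:**
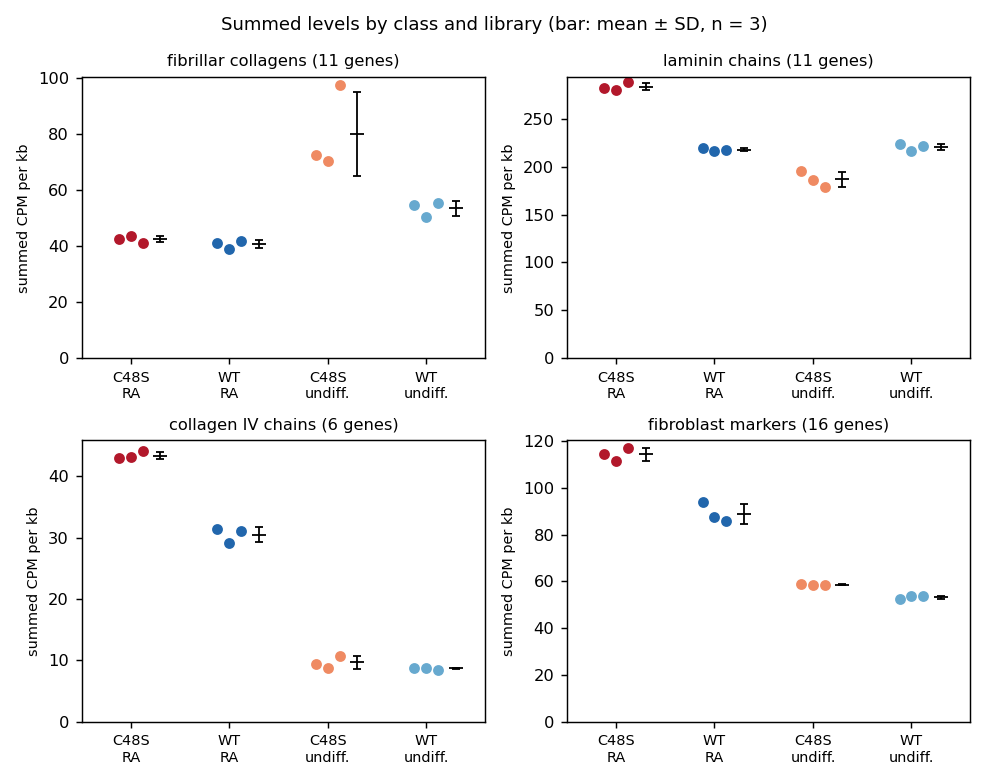
Summed CPM per kb of the fibrillar collagens, laminin chains, collagen IV chains and fibroblast markers in each library (points) with the mean and SD of each group (bars, n = 3). Collagen IV is above 29 CPM per kb in every RA library and below 11 in every undifferentiated one, and C48S undifferentiated replicate 3 stands at 97.3 for the fibrillar collagens, above its group.

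Among the fibrillar collagens, Col1a1, Col3a1, Col5a2 and Col5a3 fell with RA in both lines, while the chains of cartilage types II and XI rose. In C48S 5 of the 11 rose and 6 fell (median -0.36), and in WT 7 rose and 4 fell (median 0.55), all 11 being called in each line. Of all genes tested 73.6% were called in C48S and 78.3% in WT. Col1a1 (ENSMUSG00000001506, chromosome 11, 94827050 to 94843868 on GRCm39), the major chain of type I collagen, was at 78.4, 81.7 and 74.6 CPM in C48S RA and 72.8, 71.2 and 80.8 in WT RA libraries. The undifferentiated libraries were at 240.1, 234 and 334 CPM in C48S and 141, 137 and 152 in WT. The RA and undifferentiated libraries did not overlap in either line. It fell by 1.78 ± 0.13 on the log2 scale in C48S and by 0.94 ± 0.14 in WT, and by more in C48S (difference -0.85 ± 0.19, adjusted p = 0.00602). Col3a1 (ENSMUSG00000026043, chromosome 1, 45350698 to 45388866), the chain of the homotrimeric type III collagen of soft tissues, was at 28.2, 26.8 and 22.4 CPM in C48S RA and 21.2, 19.4 and 17.4 in WT RA libraries. The undifferentiated libraries were at 111, 103 and 149 CPM in C48S and 117, 104 and 111 in WT. Its change was -2.23 ± 0.14 in C48S and -2.51 ± 0.15 in WT, and the gap between these changes was not called (0.28 ± 0.21, adjusted p = 0.334).

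Col5a2, a type V chain encoded beside Col3a1, followed the same course, with a change of -1.71 ± 0.10 in C48S and -2.04 ± 0.12 in WT. It was at 20.7, 21.2 and 19.97 CPM in C48S RA and 9.95, 11.7 and 14.2 in WT RA libraries, against 60.8, 60.6 and 81.4 in C48S undifferentiated and 50.02, 48.2 and 49.5 in WT undifferentiated libraries. Col5a3, a rarer type V chain, fell as well, by 0.88 ± 0.18 in C48S and 1.05 ± 0.14 in WT. Type V collagen joins type I in the same fibrils and limits their width.

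The remaining chains of types I and V went opposite ways in the lines. Col1a2 (ENSMUSG00000029661, chromosome 6, 4504814 to 4541544), which supplies the single α2 chain of the type I trimer, was at 15.6, 15.99 and 15.4 CPM in C48S RA and 31.4, 30.2 and 32.4 in WT RA libraries, against 40.2, 39.4 and 50.8 in C48S undifferentiated and 20.3, 13.7 and 18.6 in WT undifferentiated libraries. It fell with RA in C48S (-1.47 ± 0.11) and rose in WT (0.85 ± 0.12), and the difference was -2.32 ± 0.16 (adjusted p = 2.16e-13). Per kb the ratio of Col1a1 to Col1a2 was 9.18 to 9.68 in C48S RA and 4.39 to 4.72 in WT RA libraries, against 11.3 to 12.5 in C48S undifferentiated and 13.1 to 18.9 in WT undifferentiated libraries. The ratios are of RNA and rest on exonic lengths of 6563 bases for Col1a1 and 12426 for Col1a2. They do not measure the protein chains, which stand in the type I trimer as a pair of α1 to a single α2. Col5a1, the most common type V chain, was at 52.2, 52.2 and 53.6 CPM in C48S RA and 89.5, 92.8 and 86.2 in WT RA libraries. The undifferentiated libraries were at 64.3, 59.99 and 79.00 CPM in C48S and 64.5, 57.5 and 62.04 in WT. It fell in C48S (-0.36 ± 0.075) and rose in WT (0.55 ± 0.074) (difference -0.91 ± 0.10, adjusted p = 1.09e-08), and in neither line did RA and undifferentiated libraries overlap. Without C48S undifferentiated replicate 3 the C48S change was -0.24.

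Col2a1, the chain of type II collagen of cartilage and notochord, rose in both lines. It was at 127, 133 and 126 CPM in C48S RA and 88.2, 70.7 and 81.5 in WT RA libraries. The undifferentiated libraries were at 39.97, 41.8 and 55.1 CPM in C48S and 25.8, 19.8 and 24.2 in WT. The change was 1.50 ± 0.11 in C48S and 1.79 ± 0.12 in WT, and no RA library overlapped an undifferentiated one of its line. Its share of the summed fibrillar level per kb was 32.8% in C48S RA and 21.3% in WT RA cells, against 6.17% in C48S undifferentiated and 4.70% in WT undifferentiated cells. Col1a1 made up 28.1% in either line after RA, against 51.3% in C48S undifferentiated and 40.8% in WT undifferentiated cells. Col11a1, a type XI chain that joins type II in cartilage fibrils, was at 27.7, 26.5 and 25.9 CPM in C48S RA and 15.96, 14.3 and 15.5 in WT RA libraries, against 19.6, 20.1 and 21.3 in C48S undifferentiated and 8.49, 9.91 and 10.2 in WT undifferentiated libraries. Its partner Col11a2 was at 4.15, 4.58 and 3.96 CPM in C48S RA and 1.97, 2.32 and 2.44 in WT RA libraries, against 1.02, 2.02 and 0.724 in C48S undifferentiated and 0.419, 1.09 and 0.542 in WT undifferentiated libraries. Both were higher in C48S RA than in WT RA libraries without overlap, and they rose by 0.40 ± 0.095 and 1.76 ± 0.30 in C48S and by 0.67 ± 0.12 and 1.64 ± 0.38 in WT. Col27a1, a fibrillar collagen of developing cartilage, rose by 1.01 ± 0.13 in C48S and 0.24 ± 0.11 in WT. The small WT rise (adjusted p = 0.0462) was not called by DESeq2 (adjusted p = 0.0921), with no filter beyond 1 count (0.104), or without WT RA replicate 3 (0.209) or WT undifferentiated replicate 2 (0.164) or 3 (0.122). Col24a1, a minor fibrillar chain, had 46 counts over the C48S RA libraries and 1 count over the C48S undifferentiated ones, a ratio of 39.1 (95% interval from 6.67 to 1580, counting error only). In WT it had 74 counts after RA and 0 before it, at least 24-fold higher when the WT undifferentiated group is set to a floor of 3 counts in all.

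Between the lines the fibrillar collagens differed in both directions. Of the 11 genes, 5 were higher, 2 lower and 4 not called in C48S undifferentiated than in WT undifferentiated cells (median 0.78, or 0.62 over the 10 genes left once Col24a1, at or under the floor in both, is set aside), where 55.6% of all genes tested were called. After RA 4 were higher and 5 lower in C48S RA than in WT RA cells (median 0.06), where 54.5% of all genes were called. The called rises before RA were Col1a2 (1.32 ± 0.11), Col11a1 (1.09 ± 0.11), Col2a1 (0.98 ± 0.13), Col1a1 (0.91 ± 0.13) and Col5a2 (0.46 ± 0.095), and the falls were Col27a1 (-1.24 ± 0.13) and Col5a3 (-1.21 ± 0.15). Col3a1, at 0.13 ± 0.12, did not pass the test (adjusted p = 0.399). After RA, Col11a2 (0.91 ± 0.27), Col11a1 (0.81 ± 0.098), Col5a2 (0.79 ± 0.13) and Col2a1 (0.69 ± 0.10) were higher in C48S, and Col5a3 (-1.03 ± 0.18), Col1a2 (-1.001 ± 0.11), Col24a1, Col5a1 (-0.77 ± 0.074) and Col27a1 (-0.47 ± 0.11) were lower. Col24a1 was at 1.92, 0.935 and 0.872 CPM in C48S RA and 2.59, 2.32 and 2.15 in WT RA libraries, and 4 of the 6 fits that leave out 1 of these libraries no longer called it, namely those without C48S RA replicate 2 or 3 or WT RA replicate 1 or 2. DESeq2 did not call it either (adjusted p = 0.164). After RA Col1a1, at 0.062 ± 0.14, was not called, nor was Col3a1, at 0.42 ± 0.17 (adjusted p = 0.0615), which was called by DESeq2 (0.38, adjusted p = 0.0203), with no filter beyond 1 count, with the compared groups alone, and without C48S RA replicate 3 (0.51, adjusted p = 0.0316).

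Col1a2 and Col1a1 lie on chromosomes whose median gene was shifted between the lines. Col1a2 lies on chromosome 6, whose median was 0.58 before RA, so it exceeded its chromosome then and went against it after RA, at -1.001 ± 0.11 beside a median of 0.63. Col1a1 lies on chromosome 11, whose median before RA was -0.53, and was higher in C48S against that shift. The part of these shifts in the result was not tested. C48S undifferentiated replicate 3 was the highest of its group for 9 of the 10 fibrillar genes with at least 1 CPM in that group, at a median ratio of 1.27 to the mean of replicates 1 and 2. Without it, Col1a1 was still higher in C48S undifferentiated cells, by 0.74, as were Col1a2 by 1.21 and Col2a1 by 0.83, and the difference of Col3a1 turned to -0.035.

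Markers of fibroblasts moved in part with the fibrillar collagens. In bulk libraries fewer cells of a type and less RNA per cell cannot be told apart. Dcn, a small proteoglycan that coats collagen fibrils and a defining fibroblast marker, was at 5.22, 3.65 and 3.96 CPM in C48S RA and 6.84, 5.66 and 7.03 in WT RA libraries, against 30.97, 28.6 and 26.5 in C48S undifferentiated and 44.4, 44.8 and 48.1 in WT undifferentiated libraries. Lum, a related proteoglycan, was at 1.77, 2.34 and 3.17 CPM in C48S RA and 1.66, 2.49 and 1.17 in WT RA libraries, against 15.5, 14.5 and 13.1 in C48S undifferentiated and 19.1, 17.7 and 18.8 in WT undifferentiated libraries. With RA, Dcn fell by 2.73 ± 0.13 in C48S and 2.82 ± 0.12 in WT and Lum by 2.57 ± 0.18 and 3.35 ± 0.19, as Col1a1 and Col3a1 did. Between undifferentiated lines Dcn (-0.67 ± 0.092) and Lum (-0.36 ± 0.13) were lower in C48S, where Col1a1 was higher. The defining markers Pdgfrb (1.21 ± 0.087), Postn (2.33 ± 0.52) and Prrx1 (0.85 ± 0.11) were higher in C48S undifferentiated cells.

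The rest of the marker list was mixed. Of its 16 genes 15 were tested, of which 8 rose and 6 fell with RA in C48S and 8 rose and 5 fell in WT, while 5 were higher and 5 lower in C48S RA than in WT RA and 8 were higher and 5 lower in C48S undifferentiated than in WT undifferentiated cells. With RA 93.3% were called in C48S and 86.7% in WT, where 73.6% and 78.3% of all genes were called. Between the lines 66.7% were called after RA and 86.7% before it, against 54.5% and 55.6% of all genes. Pdgfrb, a growth factor receptor of mesenchymal cells, rose with RA to 220.3, 220.3 and 228 CPM in C48S and 86.8, 88.2 and 80.3 in WT, against 26.98, 26.96 and 30.9 in C48S undifferentiated and 11.6, 12.3 and 12.7 in WT undifferentiated libraries. Prrx1, a mesenchymal transcription factor, was at 7.84, 6.73 and 7.69 CPM in C48S RA and 6.22, 6.86 and 5.37 in WT RA libraries, against 23.7, 24.2 and 22.4 in C48S undifferentiated and 11.3, 13.5 and 14.2 in WT undifferentiated libraries. It fell with RA by 1.65 ± 0.12 in C48S and 1.08 ± 0.14 in WT. The remaining defining markers were low, with Twist2 at most 3 CPM, and Postn and Fap at most 1.61 and 1.19 CPM in any library, with Postn at 0 in 1 C48S RA library. The summed list ranged from 112 to 117 CPM per kb in C48S RA and from 85.6 to 93.8 in WT RA, against 58.3 to 59.0 in C48S undifferentiated and 52.5 to 53.7 in WT undifferentiated libraries. C48S undifferentiated replicate 3, where the fibrillar genes were high, was compared over the 15 markers averaging at least 1 CPM in replicates 1 and 2. It was the highest of its group for 5 of these and the lowest for 9, with a median ratio of 0.933 to that average. The ratio was 0.889 for Dcn and 0.875 for Lum. Twist2, below that level, was highest in replicate 3, at a ratio of 1.54. The part of fibroblasts in the fibrillar levels was not tested.

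**Figure D3:**
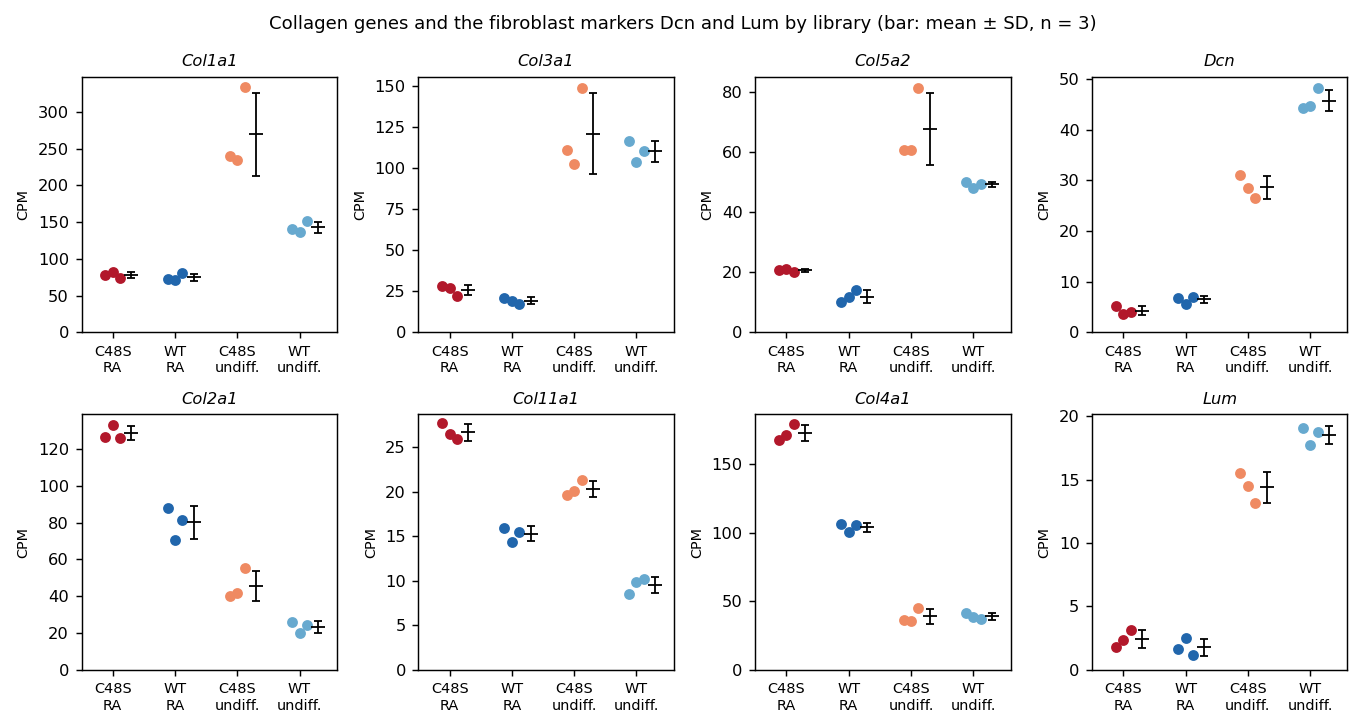
CPM of 6 collagen genes and the fibroblast markers Dcn and Lum in each library (points) with group mean and SD (bars, n = 3), C48S RA, WT RA, C48S undifferentiated and WT undifferentiated from left to right. Col1a1, Col3a1, Col5a2, Dcn and Lum are lower after RA in both lines, Col2a1 and Col4a1 are higher, and C48S undifferentiated replicate 3 is the top library of its group for the collagens but the lowest for Dcn and Lum.

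Every collagen IV gene tested rose with RA. All 5 were called in both lines, with a median of 2.27 in C48S and 2.496 in WT. Among all genes tested 73.6% were called in C48S and 78.3% in WT. Col4a1 (ENSMUSG00000031502, chromosome 8, 11248423 to 11362826), with Col4a2 the ubiquitous component of collagen IV networks, was at 168, 171 and 179 CPM in C48S RA and 106, 100.3 and 106 in WT RA libraries. Before RA it was at 35.98, 35.9 and 45.3 CPM in C48S and 41.6, 38.2 and 36.98 in WT libraries. Col4a2 (ENSMUSG00000031503, chromosome 8, 11362805 to 11499287), which shares the promoter region printed above, was at 119, 117 and 118 CPM in C48S RA and 83.8, 81.8 and 84.96 in WT RA libraries, against 25.97, 22.2 and 24.7 in C48S undifferentiated and 18.6, 19.8 and 19.5 in WT undifferentiated libraries. For both genes every RA library was above every undifferentiated one, and every C48S RA library above every WT RA one. Col4a1 rose by 2.15 ± 0.069 in C48S and 1.42 ± 0.071 in WT, a difference of 0.73 ± 0.10 (adjusted p = 2.34e-07), and Col4a2 by 2.27 ± 0.068 and 2.11 ± 0.072, whose difference of 0.16 ± 0.10 did not pass the test (adjusted p = 0.219). Their ratio per kb, Col4a1 over Col4a2, was 1.25 to 1.35 in C48S RA and 1.09 to 1.13 in WT RA libraries, against 1.23 to 1.63 in C48S undifferentiated and 1.68 to 1.99 in WT undifferentiated libraries.

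The X-linked pair showed the reverse order of the lines. Col4a5 and Col4a6 encode chains of more specialised basement membranes, such as those of kidney and smooth muscle. Col4a5 was at 12.5, 12.7 and 11.4 CPM in C48S RA and 20.6, 15.3 and 18.6 in WT RA libraries, against 4.33, 3.41 and 5.69 in C48S undifferentiated and 2.52, 3.53 and 3.47 in WT undifferentiated libraries. Col4a6 was at 3.92, 4.12 and 3.88 CPM in C48S RA and 8.71, 7.89 and 9.38 in WT RA libraries, against 0.679, 0.639 and 0.827 in C48S undifferentiated and 0.419, 0.588 and 0.651 in WT undifferentiated libraries. Both rose less in C48S (1.45 ± 0.17 and 2.46 ± 0.28) than in WT (2.496 ± 0.17 and 3.93 ± 0.26), with differences of -1.05 ± 0.25 (adjusted p = 0.001) and -1.48 ± 0.47 (adjusted p = 0.0116). Col4a4, a chain of the kidney filter, was at 1.54, 0.842 and 0.634 CPM in C48S RA and 1.97, 0.429 and 0.879 in WT RA libraries, against 0, 0 and 0.103 in C48S undifferentiated and 0, 0 and 0 in WT undifferentiated libraries. It had 37 counts over the C48S RA libraries and 1 over the C48S undifferentiated ones, a ratio of 31.4 (95% interval from 5.3 to 1270), and 33 counts over the WT RA libraries and 0 before RA, at least 10.7-fold higher. Its partner Col4a3 had 4 counts in each line after RA and 0 before it, which is barely above the floor of 3.

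Between the lines, Col4a1 and Col4a2 were higher in C48S RA than in WT RA cells (0.73 ± 0.062 and 0.50 ± 0.059) and Col4a5 and Col4a6 were lower (-0.56 ± 0.13 and -1.12 ± 0.17). Before RA only Col4a2 was called (0.33 ± 0.083), with Col4a1 at 0.002 ± 0.078. Col4a1 and Col4a2 lie on chromosome 8, whose median was 0.58 after RA and 0.52 before it, so after RA Col4a1 was above and Col4a2 below that of their chromosome, and before RA both were below it. The part of that shift in their difference was not tested.

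Of the 11 laminin chains 9 rose with RA in each line. Over the 12 libraries the α, β and γ chains with the highest mean level per kb were those of laminin-511, although in C48S undifferentiated cells Lamb2 (12.1 CPM per kb) was above Lamb1 (10.6). In C48S 1 fell and 1 was not called (median 0.88), and in WT 2 fell (median 0.49). The share of all genes called with RA was 73.6% in C48S and 78.3% in WT. Of the α chains, Lama5 (ENSMUSG00000015647, chromosome 2, 179818166 to 179867652) had the highest level per kb, and was at 1482, 1474 and 1544 CPM in C48S RA and 988, 945 and 996 in WT RA libraries. Before RA it was at 859.8, 816 and 768 CPM in C48S and 799.6, 706 and 747 in WT libraries. It rose by 0.88 ± 0.049 in C48S and by 0.38 ± 0.049 in WT, a difference of 0.50 ± 0.068 (adjusted p = 2.12e-07). Lama1, the α chain of laminin-111, which is the form of the earliest embryonic basement membranes, was at 79.3, 73.4 and 71.95 CPM in C48S RA and 82.9, 76.5 and 87.9 in WT RA libraries. Before RA it was at 25.5, 19.4 and 23.2 CPM in C48S and 57.9, 60.6 and 57.7 in WT libraries. It rose more in C48S (1.72 ± 0.081) than in WT (0.49 ± 0.072) (difference 1.23 ± 0.11, adjusted p = 1.86e-11), and the lines overlapped after RA but not before it. Per kb Lama5 exceeded Lama1 15.9 to 18.2 fold in C48S RA and 9.63 to 10.5 fold in WT RA libraries, against 28.2 to 35.8 fold in C48S undifferentiated and 9.90 to 11.7 fold in WT undifferentiated libraries.

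Lama3 and Lama4 went opposite ways in the lines. Lama3 (ENSMUSG00000024421, chromosome 18, 12466876 to 12716070), the α chain of the epithelial laminin-332, was at 18.2, 18.5 and 19.1 CPM in C48S RA and 23.3, 24.5 and 22.7 in WT RA libraries, against 8.74, 8.20 and 8.17 in C48S undifferentiated and 77.7, 85.4 and 80.2 in WT undifferentiated libraries. The WT undifferentiated libraries stood far above all others. Lama3 rose with RA in C48S (1.15 ± 0.10) and fell in WT (-1.79 ± 0.077), the largest difference of RA changes among the members called (2.93 ± 0.13, adjusted p = 1.67e-19). Lama4, the α chain of vascular and mesenchymal laminins, was at 5.92, 5.80 and 5.47 CPM in C48S RA and 7.77, 9.61 and 8.50 in WT RA libraries, against 24.3, 23.1 and 21.9 in C48S undifferentiated and 6.29, 7.47 and 5.75 in WT undifferentiated libraries. Here the C48S undifferentiated libraries stood above all others. It fell in C48S (-2.01 ± 0.13) and rose slightly in WT (0.40 ± 0.15, adjusted p = 0.014), a call lost without WT RA replicate 2 (0.32, adjusted p = 0.076) or WT undifferentiated replicate 3 (0.32, adjusted p = 0.0749). Lama2, the α chain of muscle laminin, was low, at 1.38, 0.561 and 1.35 CPM in C48S RA and 2.80, 2.66 and 2.54 in WT RA libraries, against 1.10, 1.07 and 0.310 in C48S undifferentiated and 0.734, 0.588 and 0 in WT undifferentiated libraries, and rose in WT (2.52 ± 0.48). In C48S its change of 0.41 ± 0.47 was not called, and the changes differed by -2.11 ± 0.70 (adjusted p = 0.0162), a call lost without C48S undifferentiated replicate 1 (-1.82, adjusted p = 0.0741).

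The β and γ chains that pair with Lama5 and Lama1 differed in course. Lamb1 (ENSMUSG00000002900, chromosome 12, 31315233 to 31379643), whose promoter is printed above, was at 249, 252 and 247 CPM in C48S RA and 374, 373 and 359 in WT RA libraries. Before RA it was at 107, 99.9 and 109 CPM in C48S and 131, 129 and 127 in WT libraries. All 4 groups were apart, and it rose by 1.24 ± 0.049 in C48S and 1.51 ± 0.048 in WT. Lamc1 (ENSMUSG00000026478, chromosome 1, 153094668 to 153208532), the γ chain of both laminins, was at 727, 712 and 726 CPM in C48S RA and 531, 546 and 522 in WT RA libraries. Before RA it was at 672, 656 and 611 CPM in C48S and 933, 943 and 960.5 in WT libraries. It fell in WT (-0.83 ± 0.044) and rose slightly in C48S (0.16 ± 0.044, adjusted p = 0.00175), and the changes differed by 0.99 ± 0.063 (adjusted p = 3.67e-15). Lamb2, the other broadly used β chain, was at 85.5, 86.9 and 92.95 CPM in C48S RA and 79.1, 70.9 and 75.8 in WT RA libraries, against 77.2, 66.9 and 77.1 in C48S undifferentiated and 62.5, 59.7 and 65.3 in WT undifferentiated libraries. It rose by 0.26 ± 0.064 in C48S and 0.27 ± 0.067 in WT, without overlap in either line. Leaving out C48S undifferentiated replicate 2 gave 0.17 in C48S. Lama5 made up 40.3% of the summed basement membrane level per kb in C48S RA and 34.6% in WT RA cells, against 36.4% in C48S undifferentiated and 28.8% in WT undifferentiated cells. The share of Lamc1 was 26.7% in C48S RA and 26.0% in WT RA cells, against 39.8% in C48S undifferentiated and 49.9% in WT undifferentiated cells.

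Lamb3, the β chain of laminin-332, rose in both lines. It was at 11.5, 11.4 and 11.1 CPM in C48S RA and 7.46, 10.1 and 9.67 in WT RA libraries, against 4.16, 4.05 and 3.72 in C48S undifferentiated and 1.26, 2.10 and 1.95 in WT undifferentiated libraries. With RA it rose by 1.51 ± 0.16 in C48S and 2.34 ± 0.20 in WT, without overlap in either line. Lamb3 thus rose less in C48S (-0.84 ± 0.28, adjusted p = 0.015), a call lost without WT undifferentiated replicate 1 (-0.67, adjusted p = 0.0713). Lamc3, a γ chain of nerve and brain laminins, was below 1 CPM in every undifferentiated library and at 3.84, 4.86 and 6.10 CPM in C48S RA and 7.05, 6.86 and 5.86 in WT RA libraries, a rise of 3.88 ± 0.37 in C48S and 3.55 ± 0.32 in WT.

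**Figure D4:**
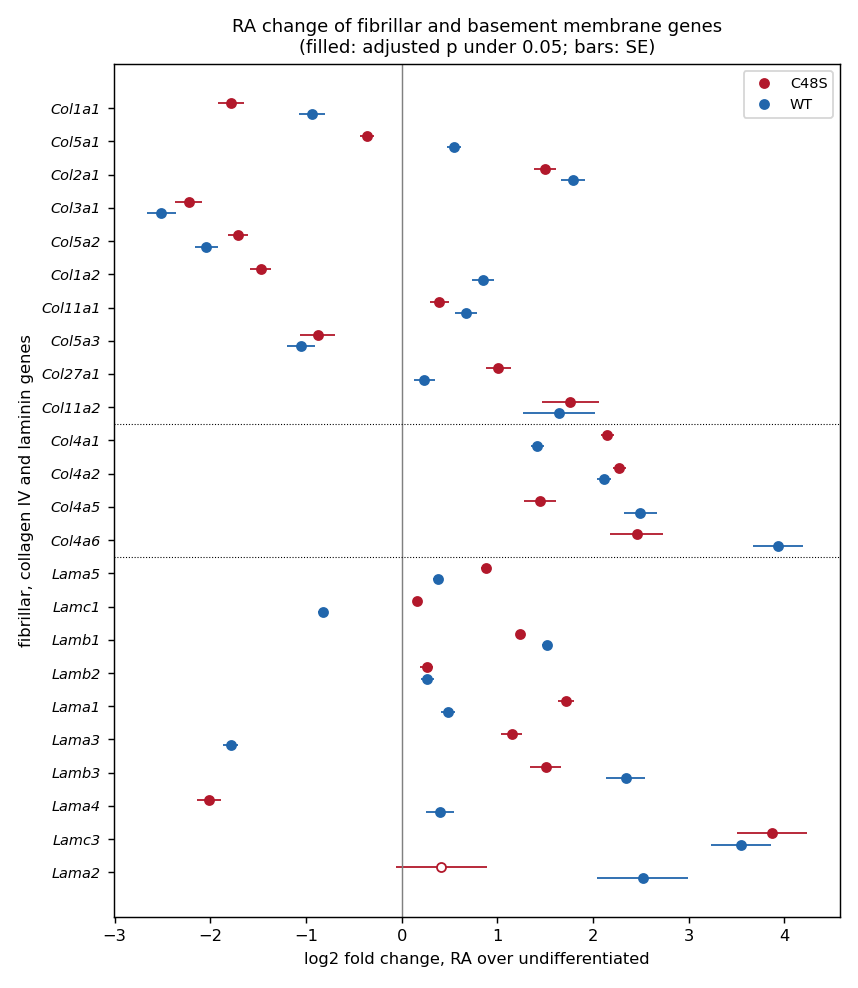
Log2 fold change with RA, RA over undifferentiated, of 24 fibrillar, collagen IV and laminin genes in C48S (red) and WT (blue), with SE bars and filled points for an adjusted p under 0.05; Col24a1 and Col4a4, with 0 or 1 count before RA, are left out. All 4 collagen IV genes lie right of 0 in both lines, and Col1a2, Col5a1, Lamc1, Lama3 and Lama4 lie on opposite sides of 0.

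Over all basement membrane chains, C48S RA cells had 6 of 16 tested genes higher and 6 lower than WT RA cells (median -0.10), and C48S undifferentiated cells 6 higher and 4 lower than WT undifferentiated cells (median 0.29, or 0.24 with Col4a4 set aside). The shares called were 75% after RA and 62.5% before it, against 54.5% and 55.6% of all genes tested. After RA, Lama5 (0.62 ± 0.048), Lamc1 (0.44 ± 0.044) and Lamb2 (0.23 ± 0.064) were among the laminin genes higher in C48S. Lama2 (-1.24 ± 0.39), Lama4 (-0.60 ± 0.15), Lamb1 (-0.56 ± 0.046) and Lama3 (-0.34 ± 0.088) were lower. Before RA, Lama4 (1.82 ± 0.13), Lamb3 (1.15 ± 0.24), Lamb2 (0.24 ± 0.067) and Lama5 (0.12 ± 0.049) were among those higher, and Lama3 (-3.27 ± 0.091), Lama1 (-1.37 ± 0.084), Lamc1 (-0.55 ± 0.044) and Lamb1 (-0.29 ± 0.050) were lower. The small Lama5 difference before RA (adjusted p = 0.038) was not called by DESeq2 (adjusted p = 0.0903), with RLE scaling (0.0797), with the compared groups alone (0.146), or without C48S undifferentiated replicate 1 (0.18) or 2 (0.0599) or WT undifferentiated replicate 2 (0.075 on the log2 scale, adjusted p = 0.257) or 3 (0.103).

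**Figure D5:**
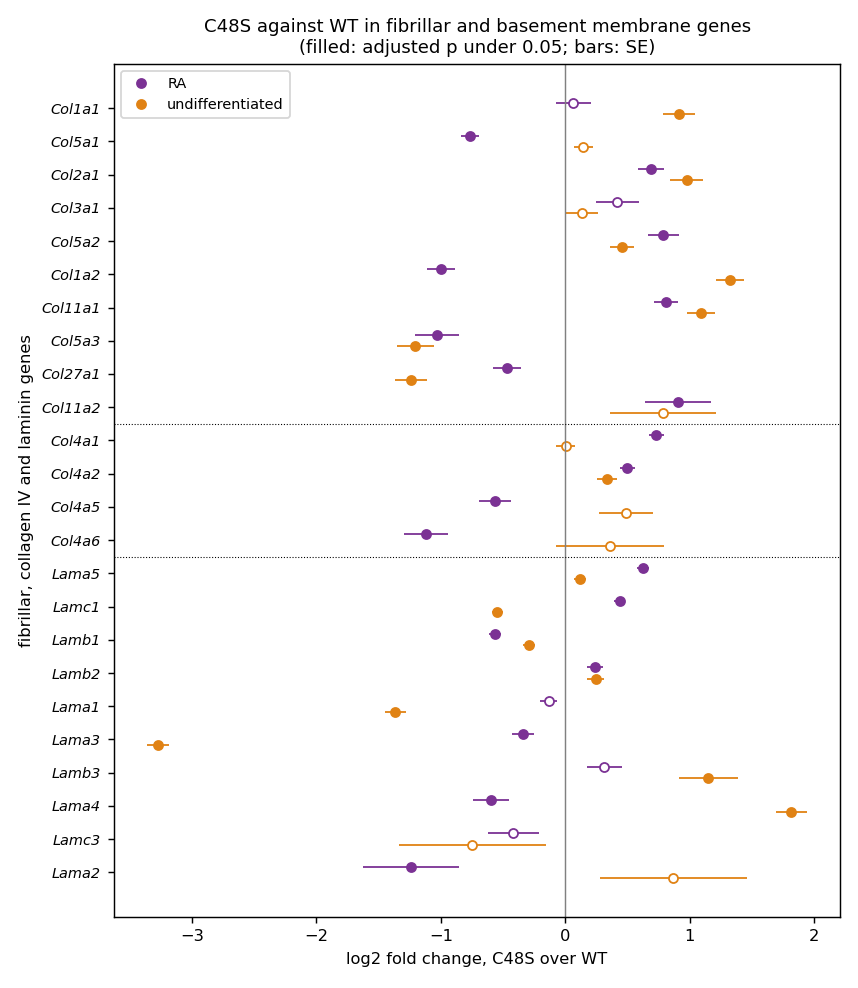
Log2 fold change of C48S over WT for the same 24 genes after RA (purple) and in undifferentiated cells (orange), with SE bars and filled points for an adjusted p under 0.05. Lama3 in undifferentiated cells is the point farthest to the left, at -3.27, and among the genes called in both states Col1a2, Lama4 and Lamc1 change side.

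The multiplexins, collagens of the basement membrane zone, rose strongly. Col18a1 (ENSMUSG00000001435, chromosome 10, 76888012 to 77002382), the core of a heparan sulfate proteoglycan and the source of the fragment endostatin, had the highest mean level per kb of the members over the 12 libraries, through its RA libraries. Before RA it averaged 36.9 CPM per kb in C48S and 32.3 in WT, below Lamc1 (78.2 in C48S, 114 in WT) and Lama5 (71.5 in C48S, 65.9 in WT). It was at 1644, 1666 and 1529 CPM in C48S RA and 1371, 1379 and 1356 in WT RA libraries. Without RA there were 252, 247 and 279 CPM in C48S and 233, 221 and 225 in WT libraries. Its RA change was 2.64 ± 0.051 in C48S and 2.60 ± 0.051 in WT, and the gap of 0.043 ± 0.068 between these changes was not called (adjusted p = 0.661). Col15a1, its relative, was at 2.54, 3.09 and 1.98 CPM in C48S RA and 4.97, 3.77 and 3.61 in WT RA libraries, against 0.594, 0.959 and 0.827 in C48S undifferentiated and 0.524, 0.672 and 0.325 in WT undifferentiated libraries. It rose by 1.67 ± 0.34 in C48S and 2.95 ± 0.34 in WT.

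The beaded filament collagens of type VI divided. Col6a1, Col6a2 and Col6a3, which form the classical microfibril around mesenchymal cells, fell with RA in both lines. Col6a1 was at 9.68, 9.91 and 10.1 CPM in C48S RA and 16.8, 13.3 and 16.4 in WT RA libraries. Without RA there were 48.1, 43.9 and 52.5 CPM in C48S and 35.03, 35.6 and 37.2 in WT libraries. Col6a2, its neighbour on chromosome 10, was at 15.4, 14.8 and 15.7 CPM in C48S RA and 12.8, 10.03 and 11.3 in WT RA libraries, against 28.3, 27.3 and 25.1 in C48S undifferentiated and 20.97, 17.9 and 18.9 in WT undifferentiated libraries. Col6a3 had the largest fall of any member, to 2.00, 1.50 and 0.872 CPM in C48S RA and 2.49, 1.63 and 2.54 in WT RA libraries, against 25.3, 21.7 and 23.9 in C48S undifferentiated and 16.9, 12.1 and 16.7 in WT undifferentiated libraries. The changes were -2.28 ± 0.10, -0.81 ± 0.10 and -4.01 ± 0.19 in C48S and -1.22 ± 0.098, -0.76 ± 0.11 and -2.78 ± 0.20 in WT for Col6a1, Col6a2 and Col6a3. The falls of Col6a1 and Col6a3 were larger in C48S (differences -1.06 ± 0.14, adjusted p = 1.66e-07, and -1.23 ± 0.33, adjusted p = 0.00283).

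Col6a4 and Col6a5, alternative type VI chains, rose instead. Col6a4 was at 2.00, 1.40 and 1.27 CPM in C48S RA and 8.08, 7.55 and 7.23 in WT RA libraries, against 0.0849, 0 and 0.310 in C48S undifferentiated and 2.62, 1.43 and 1.63 in WT undifferentiated libraries, and lower in C48S in both states (-2.27 ± 0.25 after RA, -3.73 ± 0.55 before it). Its rise was 3.48 ± 0.56 in C48S and 2.02 ± 0.25 in WT, the first from 4 counts over the C48S undifferentiated libraries. Col6a5 was at 1.92, 1.59 and 2.30 CPM in C48S RA and 3.63, 2.83 and 1.95 in WT RA libraries, against 0.0849, 0.320 and 0.724 in C48S undifferentiated and 1.57, 1.43 and 1.63 in WT undifferentiated libraries, and rose by 2.41 ± 0.46 in C48S and 0.86 ± 0.32 in WT. The WT call was lost in DESeq2 (adjusted p = 0.0597) and without WT RA replicate 1 (0.67, adjusted p = 0.1) or WT undifferentiated replicate 2 (0.80, adjusted p = 0.056). Of the network-forming type VIII chains of vessel and corneal basement membranes, Col8a2 was at 5.30, 7.01 and 6.66 CPM in C48S RA and 4.25, 2.23 and 2.83 in WT RA libraries, against 1.53, 1.28 and 1.03 in C48S undifferentiated and 0.105, 0.168 and 0.325 in WT undifferentiated libraries. It rose by 2.27 ± 0.26 in C48S and 3.89 ± 0.45 in WT, and the 4 groups did not overlap. Col8a1 was at 17.4, 20.6 and 14.98 CPM in C48S RA and 10.5, 10.1 and 10.1 in WT RA libraries, against 17.99, 18.5 and 18.8 in C48S undifferentiated and 9.12, 9.07 and 8.79 in WT undifferentiated libraries. It was not called with RA in either line (-0.068 ± 0.11 in C48S and 0.18 ± 0.14 in WT) but was higher in C48S in both states (0.78 ± 0.12 after RA, 1.03 ± 0.12 before it). Col10a1, the chain of hypertrophic cartilage, was at most 1.68 CPM and not called in any of the 5 comparisons.

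FACIT collagens sit on the surface of fibrils. Of 9 genes 6 were tested, of which 5 rose and 1 fell with RA in C48S and 4 rose and 2 fell in WT. All 6 were thus called in both lines, where 73.6% of all genes were called in C48S and 78.3% in WT. Col12a1, found on type I fibrils, fell to 18.1, 19.6 and 19.8 CPM in C48S RA and 23.8, 25.1 and 24.4 in WT RA libraries, against 92.8, 87.7 and 72.6 in C48S undifferentiated and 108, 109 and 113 in WT undifferentiated libraries, a change of -2.14 ± 0.081 in C48S and -2.17 ± 0.079 in WT. Col9a2, a chain of type IX collagen on type II fibrils, was at 18.7, 13.8 and 17.5 CPM in C48S RA and 10.1, 10.3 and 8.59 in WT RA libraries, against 4.67, 5.11 and 5.89 in C48S undifferentiated and 22.1, 21.8 and 22.2 in WT undifferentiated libraries. It rose in C48S (1.69 ± 0.14) and fell in WT (-1.19 ± 0.12), a difference of 2.88 ± 0.19 (adjusted p = 6.89e-15). Its partner Col9a3 was at 7.53, 8.04 and 9.43 CPM in C48S RA and 7.46, 8.06 and 5.47 in WT RA libraries, against 3.82, 4.16 and 6.83 in C48S undifferentiated and 3.46, 2.52 and 4.12 in WT undifferentiated libraries, and rose in both lines (0.77 ± 0.20 in C48S and 1.08 ± 0.22 in WT). Col22a1, a collagen of tissue junctions such as that of muscle and tendon, was at 12.1, 10.5 and 11.6 CPM in C48S RA and 28.7, 28.7 and 25.8 in WT RA libraries, against 0.679, 1.17 and 1.76 in C48S undifferentiated and 3.36, 2.44 and 2.06 in WT undifferentiated libraries. It rose in both lines (3.28 ± 0.21 in C48S and 3.40 ± 0.16 in WT) and was lower in C48S in both states (-1.28 ± 0.12 and -1.15 ± 0.29). Col16a1 rose by 1.38 ± 0.18 in C48S and 1.31 ± 0.20 in WT, and Col20a1 by 2.501 ± 0.27 in C48S and 2.62 ± 0.26 in WT.

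The transmembrane collagens and the remaining members were low. Col17a1, the hemidesmosome collagen of epithelia, was at 6.30, 9.16 and 6.97 CPM in C48S RA and 5.91, 5.06 and 4.79 in WT RA libraries, against 6.87, 5.86 and 5.17 in C48S undifferentiated and 2.41, 3.44 and 3.58 in WT undifferentiated libraries. It rose in WT (0.73 ± 0.21) and was not called in C48S (0.30 ± 0.17, adjusted p = 0.117), and the gap between these changes was not called (adjusted p = 0.237). Col13a1, a collagen of cell contacts such as the neuromuscular junction, was at 3.00, 2.90 and 3.73 CPM in C48S RA and 5.70, 5.15 and 5.27 in WT RA libraries, against 0.849, 0.533 and 1.03 in C48S undifferentiated and 1.57, 1.76 and 1.63 in WT undifferentiated libraries. Col25a1, a neuronal collagen, was at 1.38, 1.87 and 1.90 CPM in C48S RA and 0.725, 2.14 and 1.17 in WT RA libraries, against 0.255, 0.213 and 0.103 in C48S undifferentiated and 0.105, 0.336 and 0 in WT undifferentiated libraries. Both rose, Col13a1 by 1.97 ± 0.30 in C48S and 1.68 ± 0.24 in WT and Col25a1 by 3.06 ± 0.57 in C48S and 3.00 ± 0.62 in WT. Col23a1 was at 3.00, 2.34 and 2.69 CPM in C48S RA and 7.88, 7.98 and 7.42 in WT RA libraries, against 0.339, 0.213 and 0.931 in C48S undifferentiated and 3.57, 1.76 and 3.80 in WT undifferentiated libraries. It rose by 2.44 ± 0.39 in C48S and 1.39 ± 0.23 in WT. It lies on chromosome 11 and was lower in C48S by 1.52 ± 0.23 after RA and 2.58 ± 0.39 before it, beyond the chromosome medians of -0.48 and -0.53. Col7a1, whose anchoring fibrils tie basement membranes to the tissue beneath, was at 21.7, 25.6 and 28.4 CPM in C48S RA and 17.8, 13.8 and 19.7 in WT RA libraries. Without RA there were 3.14, 5.65 and 4.96 CPM in C48S and 2.73, 1.85 and 1.52 in WT libraries. It rose by 2.48 ± 0.17 in C48S and 3.07 ± 0.22 in WT. Col26a1 was at 4.30, 3.46 and 4.20 CPM in C48S RA and 9.12, 8.06 and 7.32 in WT RA libraries, against 0.933, 0.639 and 0.310 in C48S undifferentiated and 1.05, 1.43 and 1.84 in WT undifferentiated libraries, and rose by 2.61 ± 0.31 in C48S and 2.497 ± 0.24 in WT.

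The RA changes of C48S and WT differed for 20 of the 49 members, of which 8 had the higher change in C48S and 12 the lower (39.4% of all genes called, 22.2% higher and 17.2% lower), so the members' 40.8% was near the background. Of the 16 basement membrane chains 11 were called, 5 higher and 6 lower, and of the 11 fibrillar collagens 4, 1 higher and 3 lower. For 6 members RA was called in opposite directions in the lines, a count without a matching share of all genes here. Col9a2, Lama3 and Lamc1 rose in C48S and fell in WT, and Col1a2, Col5a1 and Lama4 fell in C48S and rose in WT. Without C48S undifferentiated replicate 3, 12 members had the higher and 12 the lower change. The share of all genes called in that fit is not given here, so these counts cannot be set against a background.

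Genes that modify, bind or sense these chains changed too. Of 29 genes of collagen modification and assembly, 17 rose and 8 fell with RA in C48S (median 0.71) and 18 rose and 10 fell in WT (median 0.83). That is 86.2% called in C48S and 96.6% in WT, where 73.6% and 78.3% of all genes tested were called. Serpinh1, the collagen chaperone of the endoplasmic reticulum, rose to 373, 385 and 371 CPM in C48S RA and 447, 454 and 429 in WT RA libraries. The undifferentiated libraries were at 109, 100.4 and 115 CPM in C48S and 94.9, 104 and 95.9 in WT. Pxdn, the peroxidase that crosslinks collagen IV, was at 161, 165 and 164 CPM in C48S RA and 170.1, 172 and 172 in WT RA libraries, against 27.7, 31.01 and 27.6 in C48S undifferentiated and 21.6, 20.5 and 19.96 in WT undifferentiated libraries. It rose by 2.51 ± 0.060 in C48S and 3.05 ± 0.064 in WT. P4ha2, a prolyl hydroxylase subunit, rose less in C48S (2.10 ± 0.083) than in WT (3.33 ± 0.074, difference -1.23 ± 0.12, adjusted p = 1.04e-10). Lox, which crosslinks fibrillar collagen, was at 41.1, 35.1 and 34.5 CPM in C48S RA and 25.5, 22.9 and 21.6 in WT RA libraries, against 216, 217 and 208 in C48S undifferentiated and 208, 212 and 209.8 in WT undifferentiated libraries. It fell by 2.53 ± 0.062 in C48S and 3.17 ± 0.067 in WT. Pcolce, an enhancer of procollagen processing, fell to 19.8, 22.3 and 21.9 CPM in C48S RA and 9.33, 8.66 and 7.52 in WT RA libraries, against 155, 148 and 178 in C48S undifferentiated and 47.7, 38.8 and 44.03 in WT undifferentiated libraries. Pcolce was also higher in C48S before RA (1.89 ± 0.077), as Col1a1 was.

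Of 14 partners of basement membranes, 10 rose and 1 fell with RA in C48S (median 1.24) and 10 rose and 3 fell in WT (median 1.47), and 2 were higher and 9 lower in C48S RA than in WT RA cells (median -0.44). The shares called in these 3 comparisons were 78.6%, 92.9% and 78.6%, against 73.6%, 78.3% and 54.5% of all genes tested. The gene that fell in C48S was Sparc, a collagen-binding glycoprotein, and those that fell in WT were Nid1, Nid2 and Sparc. Npnt, an integrin ligand of embryonic basement membranes, rose by 3.15 ± 0.080 in C48S and 4.19 ± 0.090 in WT. Nid1, which links laminin to collagen IV through the γ1 chain encoded by Lamc1, was at 121, 118 and 119 CPM in C48S RA and 154, 156 and 144 in WT RA libraries. Without RA there were 119.6, 124 and 108 CPM in C48S and 408, 404 and 399.6 in WT libraries. As with Lamc1, the WT undifferentiated libraries stood highest, and Nid1 fell with RA in WT (-1.42 ± 0.050) and was not called in C48S (0.028 ± 0.052). Of 13 receptors of collagen and laminin, 84.6% were called in each line, against 73.6% of all genes in C48S and 78.3% in WT. In C48S 8 rose and 3 fell (median 0.69), and in WT 10 rose and 1 fell (median 1.09). Those that fell were Ddr2, Itga6 and Itga7 in C48S and Ddr2 in WT. Itga3, a subunit of the main receptor of laminin-511 and laminin-332, rose to 359, 358 and 333 CPM in C48S RA and 397, 381 and 377 in WT RA libraries. Without RA there were 18.2, 18.97 and 14.5 CPM in C48S and 29.99, 31.6 and 27.98 in WT libraries. Ddr2, a tyrosine kinase receptor for fibrillar collagen, fell by 0.51 ± 0.12 in C48S and 2.32 ± 0.083 in WT.

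Markers of primitive and parietal endoderm, tissues that make thick basement membranes, mostly rose with RA in both lines. Of 13 genes 11 were tested, of which 10 rose and 1, Hnf4a, fell with RA in C48S and 10 rose and 0 fell in WT. That is 100% called in C48S and 90.9% in WT, where 73.6% and 78.3% of all genes were called. Gata6, a defining regulator, was at 18.7, 14.6 and 14.9 CPM in C48S RA and 11.4, 9.35 and 9.86 in WT RA libraries, against 1.10, 0.320 and 0.207 in C48S undifferentiated and 1.05, 0.672 and 1.08 in WT undifferentiated libraries. The summed level of the defining markers Gata4, Gata6, Sox17 and Sox7 ranged from 10.4 to 10.7 CPM per kb in C48S RA and from 7.14 to 7.96 in WT RA, against 1.58 to 2.36 in C48S undifferentiated and 0.899 to 1.44 in WT undifferentiated libraries, and none of the 4 was at 0 in any library. Of 5 endothelial markers 4 were tested, of which 1 rose and 3 fell with RA in C48S and 1 rose and 1 fell in WT. The shares called were 100% in C48S and 50% in WT, against the same 73.6% and 78.3% of all genes. Pecam1 fell by 2.90 ± 0.085 in C48S and 4.32 ± 0.080 in WT, and Tek (0.72 ± 0.095) and Kdr (1.73 ± 0.35) fell in C48S. Before RA, Pecam1 was at 89.2, 88.8 and 75.2 CPM in C48S and 258, 279 and 259 in WT libraries. Whether Pecam1 marks endothelial cells here was not tested. Cdh5 was at most 0.725 CPM. Tie1, the marker that rose, was at 11.99, 13.3 and 10.4 CPM in C48S RA and 69.1, 63.8 and 77.4 in WT RA libraries, against 0.424, 0.746 and 0.517 in C48S undifferentiated and 4.30, 4.54 and 4.45 in WT undifferentiated libraries. The defining blood marker Ptprc was at most 0.639 CPM. Of the 4 blood markers only Cd68 was tested, and it was not near 0. Cd68 averaged 10.97 CPM in C48S RA and 7.663 in WT RA, against 15.81 in C48S undifferentiated and 18.26 in WT undifferentiated libraries. Its change with RA was -0.535 ± 0.131 in C48S and -1.266 ± 0.139 in WT, both called. The part of such cells in the levels of collagen IV and laminins was not tested.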

How the data were processed

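The deposited files hold whole-number read-pair counts per gene for each of the 12 libraries. The authors made these counts with featureCounts 1.6.3, for read pairs on the reverse strand (strand option 2) and by largest overlap, on Ensembl GRCm39 gene models of release 104, per the file headers. The strand setting separates the overlapping starts of Col4a1 and Col4a2. STAR 2.7.9a and DESeq2 are named in the submitters' processing notes. Symbols and biotypes came from a GENCODE M21 table, which matched 52083 of 55416 gene IDs (94.0%).

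Genes passing filterByExpr of edgeR 4.0.16 in R 4.3.3 (minimum count 10) entered 1 quasi-likelihood fit over the 4 groups with TMM scaling, robust dispersion and 8 residual degrees of freedom, and p was adjusted by Benjamini-Hochberg over 17940 genes, 17849 of them with a symbol. The 5 comparisons are RA over undifferentiated in each line, C48S over WT in each state, and the difference of the RA changes. Library totals of 8678088 to 13597098 limit the precision of low genes, and intervals and floors (3 counts over a group) cover counting error only. In simulated data for C48S against WT in undifferentiated cells (17620 genes), the fit called 76%, 92%, 100% and 100% of 50 genes each changed 1.5-, 2-, 4- and 8-fold, while unchanged genes made up 7.07% of the calls. The simulation held no library that stood apart, changed no genes of low count, and left all other genes unchanged between the lines. In the real comparison 55.6% of genes were called and C48S undifferentiated replicate 3 stood apart, so the simulated shares may not carry over.

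Members, classes and gene lists were chosen with earlier results of these data known. Values in every library are given for the 4 members of each class with the highest level per kb and for the 3 called members with the largest rise and the 3 with the largest fall in each comparison. Of the other lists up to 4 genes with the smallest adjusted p per comparison, and defining markers, may be named. Sparc, Itga6, Itga7, Nid2 and Hnf4a were also named where few list genes fell, after their values were seen. A member of the laminin class enters the counts and sums but is not reported here by name. No pairing of the libraries by the replicate numbers of the titles was detected: 0 of 18 same-numbered pairs had a correlation of deviations over 0.1 (range -0.0529 to 0.029). A weak pairing could be missed, as the correlation runs over all genes tested, low ones included. Alternatives were other scalings, filters and tools, fits of the compared groups alone, and leaving out each library in turn, and 2 were chosen after seeing the data: leaving out chromosomes 6, 8, 11 and Y, and setting low-count members to their bounds.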

Additional observations from a re-analysis of the deposited data

Results flagged for a closer look

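For 20 members the change with RA differed between C48S and WT by edgeR's interaction test (Benjamini-Hochberg over all genes tested, 39.4% of which were called). Values are given as the C48S change less the WT change, on the log2 scale ± SE. It was highest for Lama3 at 2.93 ± 0.129 and Col9a2 at 2.88 ± 0.187, both of which rose in C48S and fell in WT. Col6a5 had 1.55 ± 0.585, Lama1 1.23 ± 0.109, Lamc1 0.99 ± 0.0626, Col27a1 0.77 ± 0.17, Col4a1 0.73 ± 0.0995 and Lama5 0.50 ± 0.0683.

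On the other side stood Lama4 at -2.41 ± 0.195 and Col1a2 at -2.32 ± 0.159, which fell in C48S and rose in WT. Lama2 had -2.11 ± 0.704, Col8a2 -1.62 ± 0.613, Col4a6 -1.48 ± 0.471, Col6a3 -1.23 ± 0.329, Col6a1 -1.06 ± 0.143 and Col4a5 -1.05 ± 0.253. Col5a1 had -0.91 ± 0.105, Col1a1 -0.85 ± 0.191, Lamb3 -0.84 ± 0.277 and Lamb1 -0.27 ± 0.0678. The adjusted p was largest for Col8a2 (0.0343) and Col6a5 (0.0337), neither of which DESeq2 called (adjusted p = 0.0734 and 0.0875). Leaving out 1 library, the Col8a2 call was lost without C48S RA replicate 1, C48S undifferentiated replicate 1, WT RA replicate 1 or WT undifferentiated replicate 1 or 2. The Col6a5 call was lost in 8 of the 12 such fits and had 1.003 without C48S undifferentiated replicate 1 and 2.42 without C48S undifferentiated replicate 3. Lama2 was not called without C48S undifferentiated replicate 1 (-1.82) nor Lamb3 without WT undifferentiated replicate 1 (-0.67).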

How the results depend on the processing

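Counts of members called stayed within 1.5 times their values in the 5 comparisons under another tool, scaling or filter, and the replicate block gave 17 higher and 19 lower for C48S RA against WT RA, 19 and 14 for C48S against WT undifferentiated, 34 and 11 for RA in C48S, 35 and 11 for RA in WT and 8 and 12 for the difference of RA changes. The labels do not say that the replicate numbers pair the libraries. In the block the calls of Col9a3 between undifferentiated lines (0.56, adjusted p = 0.0517) and of Col27a1 for RA in WT (0.23, adjusted p = 0.0527) were lost. Over single members and alternatives, 2664 of 2804 values kept direction and call, 124 lost the call, 6 gained one and 10 turned sign. Testing against a fold of 1.5 in place of no change left 4 members higher and 8 lower in C48S RA than in WT RA cells. It left 10 and 9 in C48S against WT undifferentiated cells, and 4 and 4 in the difference of RA changes. Shares of all genes called with the block or against that fold are not given here, so these counts have no background. The cause of the changes that follow was not tested. The basement membrane median for C48S RA over WT RA (-0.10) was -0.16 with a 1-CPM filter or DESeq2, -0.24 without chromosomes 6, 8, 11 and Y, and -0.25 to 0.04 leaving out 1 library. That for RA in C48S was 1.23 to 1.37 leaving out 1 library. For C48S RA over WT RA the fibrillar median (0.06) was 0.02 with RLE scaling and 0.41 without those chromosomes. For the undifferentiated lines (0.78) it was 0.47 without them and 0.53 to 0.86 leaving out 1 library. Leaving out those chromosomes also removed Col1a1 and Col1a2 from the fibrillar set and Col4a1 and Col4a2 from the basement membrane set. The medians without them thus cover fewer genes. Col4a1 between undifferentiated lines lay about 0 (0.002): 0.0 with a 1-CPM filter, -0.013 with DESeq2, -0.007 with the compared groups alone, -0.002 with protein-coding genes, -0.003 with the block, -0.018 with RLE scaling and -0.11 to 0.068 leaving out 1 library. Col3a1 there was -0.035 to 0.236 leaving out 1 library. On raw library totals the mean summed levels were, in CPM per kb and beside the TMM values, 356 (327) in C48S RA, 276 (248) in WT RA, 182 (196) in C48S undifferentiated and 202 (229) in WT undifferentiated cells for the basement membrane chains. Low depth limits Col24a1, Col4a4, Col6a4 and the 6 untested genes.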
